A study of Mus musculus with 2 samples.

Results

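The CatSper genes encode the subunits of the calcium channel of the sperm tail, and 8 of them were followed here through the germ cells of the adult mouse testis. The members were the 8 rows of the count matrix with the symbols Catsper1, Catsper2, Catsper3, Catsper4, Catsperb, Catsperg1, Catsperg2 and Catsperd, of 50686 gene rows and 1182 repeat rows in all. They were chosen by name and not by a rule on their values, but with earlier results of these data known. Testes of 2 wild-type, untreated male mice of the strain C57Bl/6J Crl, both 8 weeks old, had been dissociated and profiled by droplet-based single-cell RNA sequencing, with 1 library per mouse. According to the study the animals were littermates, and the suspension was strained to keep somatic cells few. Both animals belong to 1 condition, so the comparisons are between germ cell stages within these 2 mice, and each mouse is a replicate.

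CatSper is a voltage-gated and alkalinisation-activated calcium channel in the principal piece of the sperm flagellum. Its pore is built from 4 different proteins, CATSPER1 to CATSPER4, each contributing a single channel domain, and it is surrounded by auxiliary proteins with large extracellular domains, among them CATSPERB, CATSPERG and CATSPERD. Calcium entry through the channel drives hyperactivated swimming, and male mice that lack a pore subunit are infertile. The channel works in sperm, after transcription has ceased in the condensing spermatid.

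The matrix held 2552 cells, 1237 from mouse 1 with 27450497 unique molecular identifiers (UMIs, counted cDNA molecules) and 1315 from mouse 2 with 30302332 UMIs. Single cells held 7114 to 154431 UMIs, and 0 barcodes were shared between the mice. Clustering without the CatSper genes gave 6 germ cell clusters with 2533 cells, numbered here by their median position along diffusion pseudotime, which orders cells by gradual change of their transcriptomes. Cluster 1 (163 cells) was early spermatocyte-like, cluster 2 (526 cells) pachytene or later spermatocyte-like, cluster 4 (448 cells) round spermatid-like, and clusters 5 (193 cells) and 6 (514 cells) elongating or condensing spermatid-like. Cluster 3 (689 cells) lay between spermatocytes and round spermatids and was led by Ssxb1 and Ssxb2. It stayed unnamed, because 1 of 12 round spermatid markers passed the naming rule where 3 were needed. Its best score was still for round spermatids, at 0.395, against 0.208 for pachytene or later spermatocytes. The 12 round spermatid markers summed to 3276 to 3694 CPM in cluster 3, against 1149 to 1283 CPM in cluster 2. Cluster 1 had its second score for pachytene or later spermatocytes, at 0.768, against 0.714 for cluster 2. The 16 markers of that class summed to 8017 to 9312 CPM in cluster 1 and 7374 to 8319 CPM in cluster 2, so they did not separate these clusters. In cluster 5, whose second score was for round spermatids, the 12 round spermatid markers summed to 4733 to 5014 CPM, against 5378 to 5680 CPM in cluster 4. A further 7 Sertoli-like, 7 spermatogonium-like and 5 Leydig-like cells were too few for a comparison.

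Levels are given as CPM, the counts of a gene scaled to a fixed total: the UMIs of a gene summed over the cells of a cluster and mouse and divided by all UMIs of that sum, times 1000000. The libraries count molecules at their 3′ end. Levels were compared between clusters and not between genes. Changes between neighbouring clusters are log2 changes estimated by edgeR (quasi-likelihood F test, TMM scaling factors). The standard error (SE) given with a change was derived as the absolute log2 change divided by the square root of the F statistic. A change was called at an adjusted p under 0.05, with Benjamini-Hochberg adjustment over 14132 genes. TMM assumes that most genes keep their level. With TMM, 32.1% of the genes tested were called higher and 30.0% lower from cluster 2 to 3, so the assumption was not met in that step. From cluster 1 to 2 the shares were 25.5% and 24.6%. Relative to total UMIs, TMM moved the log2 change of every gene up by 0.26, 0.08, 0.28, 0.46 and 0.61 in the 5 successive steps. The 15 condensing spermatid markers took 1.47 to 1.59% of all UMIs in cluster 4, 8.16 to 8.61% in cluster 5 and 18.6 to 21.2% in cluster 6. CPM values, which follow total UMIs, and TMM-scaled changes can therefore differ in the last steps.

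All 8 genes differed between the germ cell clusters, but so did 97.0% of the genes tested, so that this test says little about them. The order of their levels in CPM along the clusters divided the genes. Catsper1, Catsper3 and Catsper4 were highest in cluster 4. Catsper2, Catsperb, Catsperg1, Catsperg2 and Catsperd were highest in spermatocytes in the mean of both mice. This division was made after the values had been seen, and for Catsperd it depended on the scale. With TMM, Catsperd changed by -0.61 and -0.17 in the steps after cluster 2, then by 1.505 and 0.43. On that scale it was thus higher in clusters 5 and 6 than in cluster 2. Catsper4 changed by 0.00 from cluster 4 to 5 with TMM, so its higher level in cluster 4 than in cluster 5 also held in CPM only. Of the 40 combinations of a gene and a step, 24 were called. In all 24 both mice had the same direction once the TMM shift fitted to both was added to each. The calls were made from the same 2 mice. In CPM, without that shift, mouse 1 did not share the called rise of Catsperg1 from cluster 5 to 6. The called rise of Catsperd in that step was a fall in CPM in both mice. Over all 40, on the shifted scale, the mice had opposite directions in 5, none of them called.

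**Figure D1:**
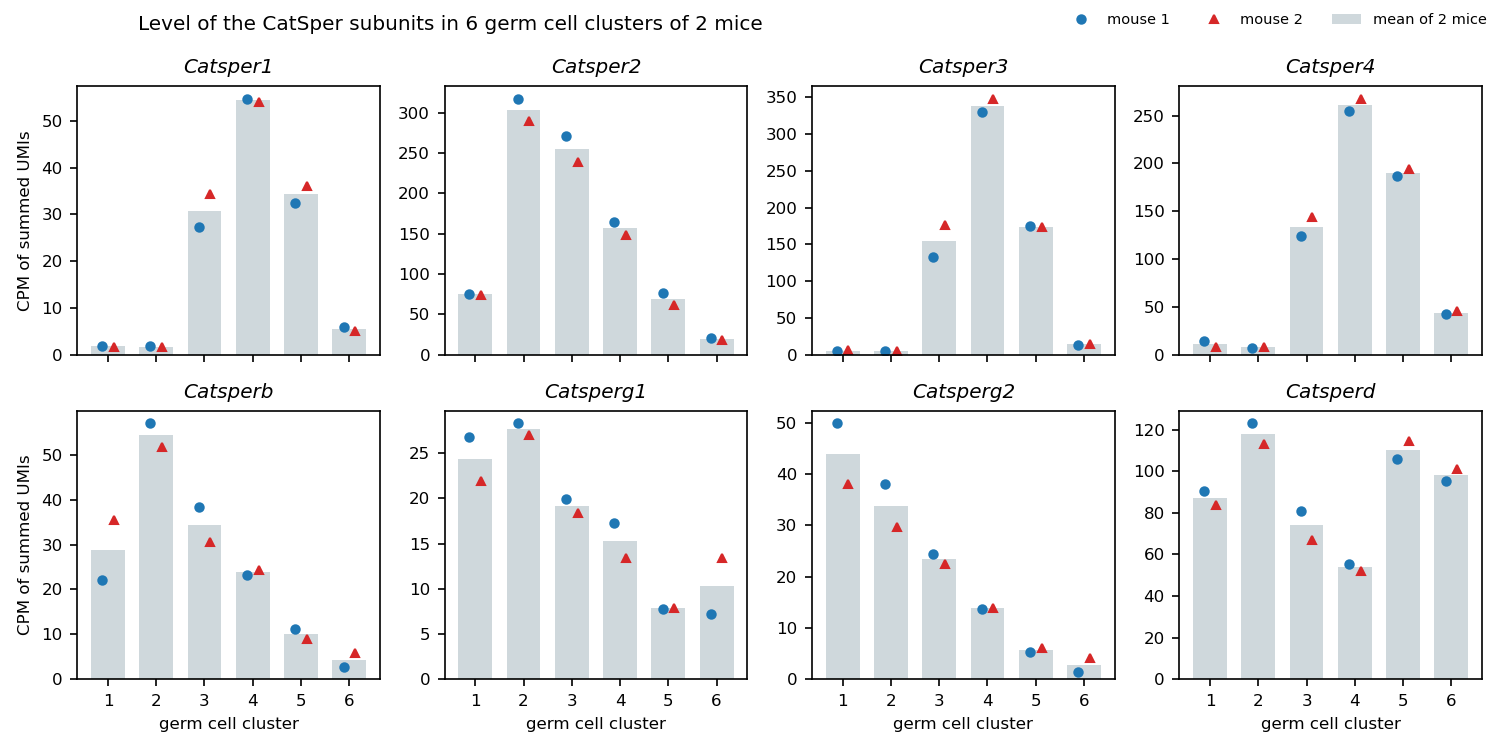
Level of each CatSper subunit in the 6 germ cell clusters, in CPM on a linear axis that differs between genes. Bars are means of 2 mice and points the single mice. Catsper1, Catsper3 and Catsper4 were highest in cluster 4, Catsper2 and Catsperb in cluster 2, and Catsperd had a low point in cluster 4.

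Catsper3 encodes a pore subunit and lies on chromosome 13 (55784568 to 55808998, plus strand, GRCm38). It was measured at 4.62 CPM in mouse 1 and 5.78 CPM in mouse 2 in cluster 1, and at 4.80 and 5.23 CPM in cluster 2. It then reached 132 and 176 CPM in cluster 3, 330 and 348 CPM in cluster 4 and 175 and 174 CPM in cluster 5, before it was measured at 13.6 and 14.6 CPM in cluster 6. The mice did not overlap between neighbours in this order of levels, except between clusters 5 and 3 and between clusters 1 and 2. From cluster 2 to 3 Catsper3 rose by 5.02 ± 0.19 (SE) on the log2 scale (edgeR, adjusted p = 2.32e-15), and from cluster 3 to 4 it rose again by 1.41 ± 0.14 (edgeR, adjusted p = 2.86e-08). It fell by 0.50 ± 0.14 from cluster 4 to 5 (edgeR, adjusted p = 0.00657, or 0.0713 in cells thinned to equal depth) and by 3.02 ± 0.18 from cluster 5 to 6 (edgeR, adjusted p = 3.27e-11).

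Catsper4, a further pore subunit (chromosome 4, 134211970 to 134227383, minus strand), rose in the same steps as Catsper3. Its level was 13.9 and 7.85 CPM in cluster 1, 7.10 and 7.78 CPM in cluster 2, 124 and 144 CPM in cluster 3 and 255 and 268 CPM in cluster 4. Clusters 5 and 6 held 186 and 194 CPM and 42.7 and 45.2 CPM. The mice did not overlap between any neighbours in the order of levels. Catsper4 rose by 4.25 ± 0.17 from cluster 2 to 3 and by 1.24 ± 0.14 from cluster 3 to 4 (edgeR, adjusted p = 5.19e-15 and 1.15e-07). It fell by 1.51 ± 0.15 from cluster 5 to 6 (edgeR, adjusted p = 5.81e-08). From cluster 4 to 5 the log2 change was 0.00 ± 0.14 with TMM (adjusted p = 0.991), whereas with total UMIs it was -0.46 (adjusted p = 0.00620). Whether a fall was called in this step thus depended on the scaling.

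Catsper1 (chromosome 19, 5335741 to 5344280, plus strand), the pore subunit that gave the family its name, was the least counted of the 3 late genes, with 1252 UMIs in all cells. It was measured at 1.85 and 1.65 CPM in cluster 1 and at 1.73 and 1.61 CPM in cluster 2, which rest on 6 and 30 UMIs. Cluster 3 held 27.2 and 34.4 CPM, cluster 4 54.8 and 54.1 CPM, cluster 5 32.5 and 36.1 CPM and cluster 6 5.83 and 5.09 CPM. As for Catsper3, the mice overlapped between clusters 5 and 3 and between clusters 1 and 2. Catsper1 rose by 4.26 ± 0.23 from cluster 2 to 3 and by 1.09 ± 0.16 from cluster 3 to 4 (edgeR, adjusted p = 3.77e-13 and 6.81e-06), and it fell by 2.05 ± 0.24 from cluster 5 to 6 (edgeR, adjusted p = 5.38e-07). The change from cluster 4 to 5 was -0.20 ± 0.18 with TMM (adjusted p = 0.402) and -0.66 with total UMIs (adjusted p = 0.00248).

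The low counts of these 3 genes in spermatocytes were set beside free RNA, which enters every droplet. In cluster 2 the CPM of Catsper1, Catsper3 and Catsper4 was 7.43 to 7.96%, 4.06 to 4.43% and 6.80 to 7.45% of the CPM over all cells. The 15 condensing spermatid markers stood at 5.54 to 23.6% of their own in the same cells. The 3 genes were thus in the lower part of the range of these markers or below it. The markers did not share a single percentage, so they set no sharp level for free RNA. Whether free RNA gave these counts was not tested, and no expression in spermatocytes was read from them. This comparison was added after the values had been seen and was made for spermatocytes only. Low levels of the 8 genes in cluster 6 were not set beside free RNA. Whether free RNA gave part of those counts was not tested either.

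Catsper2 (chromosome 2, 121392631 to 121413792, minus strand) is the remaining pore subunit, and it was highest in spermatocytes. Its level was 75.8 and 73.5 CPM in cluster 1 and 318 and 291 CPM in cluster 2. It stood at 271 and 239 CPM in cluster 3, 165 and 149 CPM in cluster 4, 76.7 and 61.1 CPM in cluster 5 and 21.1 and 17.5 CPM in cluster 6. The mice overlapped between clusters 1 and 5 and between no other neighbours in the order of levels. Catsper2 rose by 2.28 ± 0.15 from cluster 1 to 2 (edgeR, adjusted p = 8.93e-11). The step from cluster 2 to 3, in which the other pore subunits had their largest rise, gave -0.18 ± 0.13 and was not called (edgeR, adjusted p = 0.242). Catsper2 then fell by 0.42 ± 0.13, 0.73 ± 0.15 and 1.22 ± 0.18 in the 3 following steps (edgeR, adjusted p = 0.0136, 0.000261 and 7.37e-06). Catsper2 overlaps Pdia3 on the opposite strand by 18 bases, while Catsper1, Catsper3, Catsper4 and Catsperd overlap no annotated gene.

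Among the auxiliary subunits, Catsperb (chromosome 12, 101404653 to 101626009, plus strand) had a course like that of Catsper2. It was measured at 22.2 and 35.5 CPM in cluster 1, 57.1 and 51.8 CPM in cluster 2, 38.3 and 30.6 CPM in cluster 3 and 23.3 and 24.3 CPM in cluster 4. In clusters 5 and 6 it stood at 11.2 and 8.93 CPM and at 2.77 and 5.73 CPM. Catsperb was higher in cluster 2 than in all other clusters in both mice, while clusters 3 and 1 and clusters 1 and 4 overlapped. It rose by 1.08 ± 0.22 from cluster 1 to 2 (edgeR, adjusted p = 0.000293), fell by 0.59 ± 0.19 to cluster 3 (adjusted p = 0.00871) and fell by 0.80 ± 0.28 from cluster 4 to 5 (adjusted p = 0.0221, or 0.126 in thinned cells). Of the 98-base windows of its longest transcript 7.38% were shared with Gm18795, and 4.96% of those in the last 500 bases, so its counts are also less certain.

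Catsperg1 and Catsperg2 are a pair of related genes on chromosome 7 (29181321 to 29214035 and 29697219 to 29727032, both on the minus strand), each encoding a form of the gamma subunit. Of all 98-base windows of their longest transcripts, 21.9% of those of Catsperg1 and 21.3% of those of Catsperg2 were identical to the other gene, and in the last 500 bases, where 3′ reads fall, 2.23% and 9.68% were. A read from such a window matches both genes, so the counts of this pair are less certain. Catsperg2 was highest in cluster 1, at 49.9 and 38.0 CPM. It stood at 38.1 and 29.6 CPM in cluster 2, 24.3 and 22.4 CPM in cluster 3, 13.8 and 13.9 CPM in cluster 4, 5.34 and 6.07 CPM in cluster 5 and 1.39 and 4.14 CPM in cluster 6, each lower than the cluster before in the mean, with an overlap of the mice between clusters 1 and 2 only. The fall by 0.47 ± 0.19 from cluster 2 to 3 was called (edgeR, adjusted p = 0.0400), but not with DESeq2 (adjusted p = 0.122). The changes of -0.47 ± 0.22 to cluster 4 and -0.80 ± 0.32 to cluster 5 were not (adjusted p = 0.0853 and 0.0512), but they were called with the mouse as a replicate block (adjusted p = 0.0200 and 0.0219).

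Catsperg1 had a flatter profile. It was measured at 26.8 and 21.9 CPM in cluster 1, 28.3 and 27.0 CPM in cluster 2, 19.9 and 18.4 CPM in cluster 3, 17.3 and 13.4 CPM in cluster 4, 7.77 and 7.86 CPM in cluster 5 and 7.21 and 13.4 CPM in cluster 6. The last pair of values overlapped with both clusters 4 and 5. The change of 0.47 ± 0.23 from cluster 1 to 2 was not called (edgeR, adjusted p = 0.0956), but was with the replicate block (adjusted p = 0.0408). Catsperg1 fell by 0.46 ± 0.19 from cluster 2 to 3 (edgeR, adjusted p = 0.0437), which was not called with DESeq2 (adjusted p = 0.122). From cluster 5 to 6 it rose by 0.98 ± 0.31 on the TMM scale (edgeR, adjusted p = 0.0161), a change of 0.37 that was not called with total UMIs (adjusted p = 0.380), and in CPM mouse 1 did not share the rise.

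Catsperd (chromosome 17, 56628143 to 56664456, plus strand) encodes the delta subunit. In CPM it was the only one of the 8 genes with a low point in cluster 4, between higher levels on both sides. It was measured at 90.6 and 83.8 CPM in cluster 1, 123 and 113 CPM in cluster 2, 80.8 and 67.0 CPM in cluster 3 and 55.3 and 52.2 CPM in cluster 4. It returned to 106 and 115 CPM in cluster 5 and stood at 95.4 and 101 CPM in cluster 6. In CPM clusters 2 and 5 overlapped, and in mouse 2 cluster 5 was the highest. Catsperd rose by 0.70 ± 0.15 from cluster 1 to 2 and fell by 0.61 ± 0.13 from cluster 2 to 3 (edgeR, adjusted p = 0.000351 and 0.000469). From cluster 3 to 4 Catsperd changed by -0.17 ± 0.14, which was not called with TMM (edgeR, adjusted p = 0.342) but was called lower with total UMIs. It rose by 1.505 ± 0.146 from cluster 4 to 5 (edgeR, adjusted p = 1.44e-08), and in this step it was also called with total UMIs. The rise by 0.43 ± 0.14 from cluster 5 to 6 (edgeR, adjusted p = 0.0186) turned to -0.17 with total UMIs (adjusted p = 0.338) and was not called in 2 other clusterings (adjusted p = 0.152 and 0.0818). None of its 98-base windows was shared with another transcript.

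Counted by step, 3 of the 8 genes rose from cluster 1 to 2, where 25.5% of all tested genes were called higher, and 0 fell, where 24.6% were called lower (0 at an unadjusted p under 0.05 in edgeR and 0 in DESeq2). From cluster 2 to 3, 3 rose and 4 fell, against 32.1% and 30.0% of all genes. From cluster 3 to 4 the same 3 rose and Catsper2 fell, against 26.4% and 18.7%. From cluster 4 to 5, Catsperd rose and Catsper2, Catsper3 and Catsperb fell, against 22.7% and 21.6%, and from cluster 5 to 6, Catsperg1 and Catsperd rose and the 4 pore subunits fell, against 16.5% and 23.5%. Each step thus called a large part of the transcriptome, and the number of CatSper genes called sets them little apart. With total UMIs in place of TMM, 4 fell from cluster 3 to 4, 7 (all but Catsperd) fell from cluster 4 to 5, and 0 rose from cluster 5 to 6. The medians of the 8 log2 changes were 0.34, -0.32, -0.11, -0.49 and -0.93 in the 5 steps, beside 0.00, -0.01, -0.02, -0.11 and 0.00 over all genes tested.

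**Figure D2:**
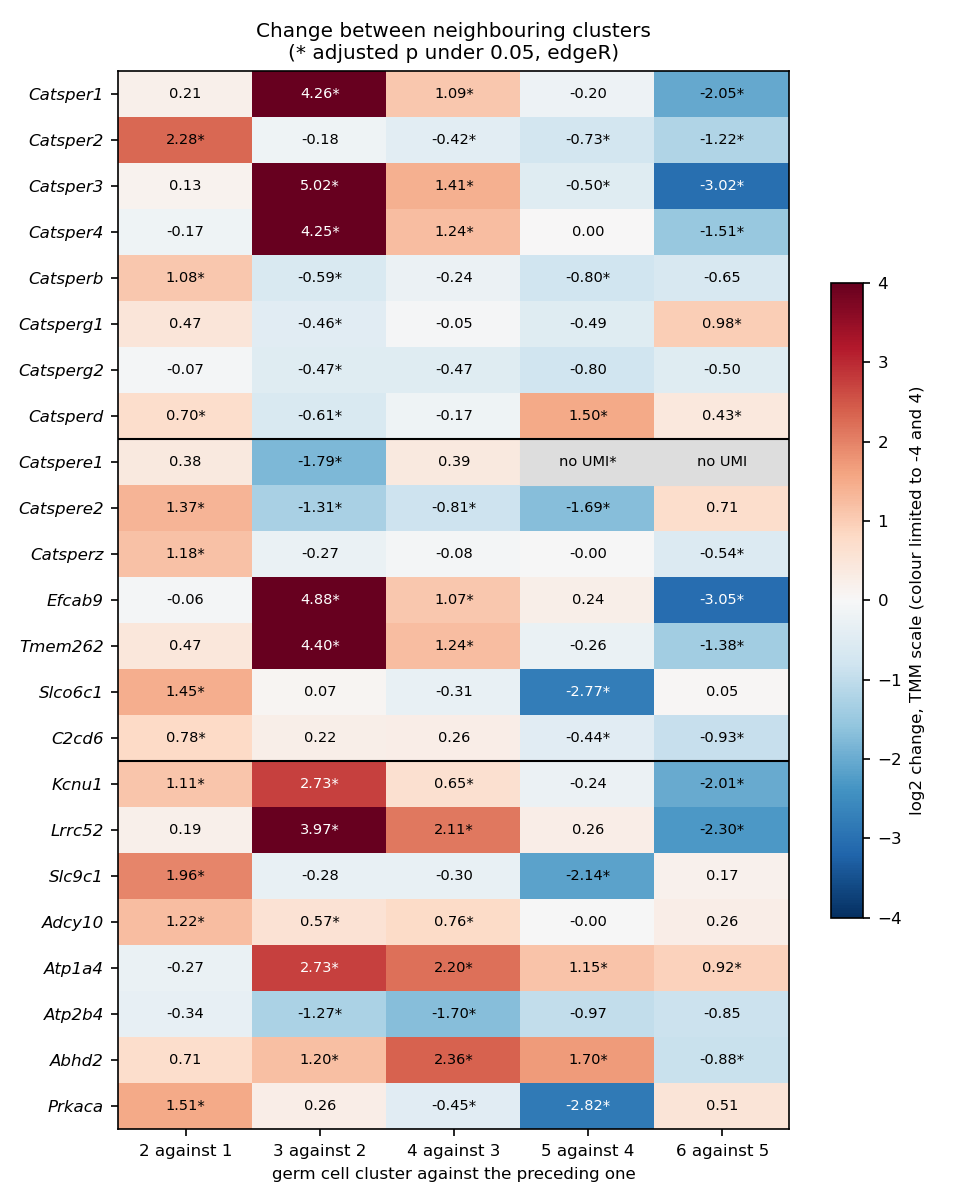
Log2 change of each germ cell cluster against the preceding one on the TMM scale, for the 8 CatSper subunits (top), 7 other CatSper complex genes (middle) and 8 partner genes (bottom). Asterisks mark an adjusted p under 0.05, and grey cells a cluster without a UMI. The darkest cells, from cluster 2 to 3, belong to Catsper1, Catsper3, Catsper4, Efcab9, Tmem262 and Lrrc52.

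The same separation was seen without cluster borders, when the germ cells were divided into 20 bins of equal cell number along pseudotime. Pseudotime and clusters were computed from the same 10 principal components of the same cells, so the bins were no separate check. The mean bin, weighted by CPM, was 12.5 in mouse 1 and 12.4 in mouse 2 for Catsper1, 12.6 in both for Catsper3 and 12.7 in both for Catsper4. It was 7.88 and 7.90 for Catsper2, 7.42 and 7.51 for Catsperb, 8.12 and 8.95 for Catsperg1 and 6.33 and 7.08 for Catsperg2. Within each mouse the 3 late genes came after the other 5. Catsperd had a mean bin of 9.80 and 10.3, which describes a gene with high levels at both ends poorly. Catsper2 was highest in bin 3, at 347 CPM in both mice, and stayed at 50% or more of that until bin 12. Catsper3 first reached 50% of its highest bin in bin 11 of both mice, so that there was a stretch of the ordering in which Catsper2 was high and the other pore subunits were still low.

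**Figure D3:**
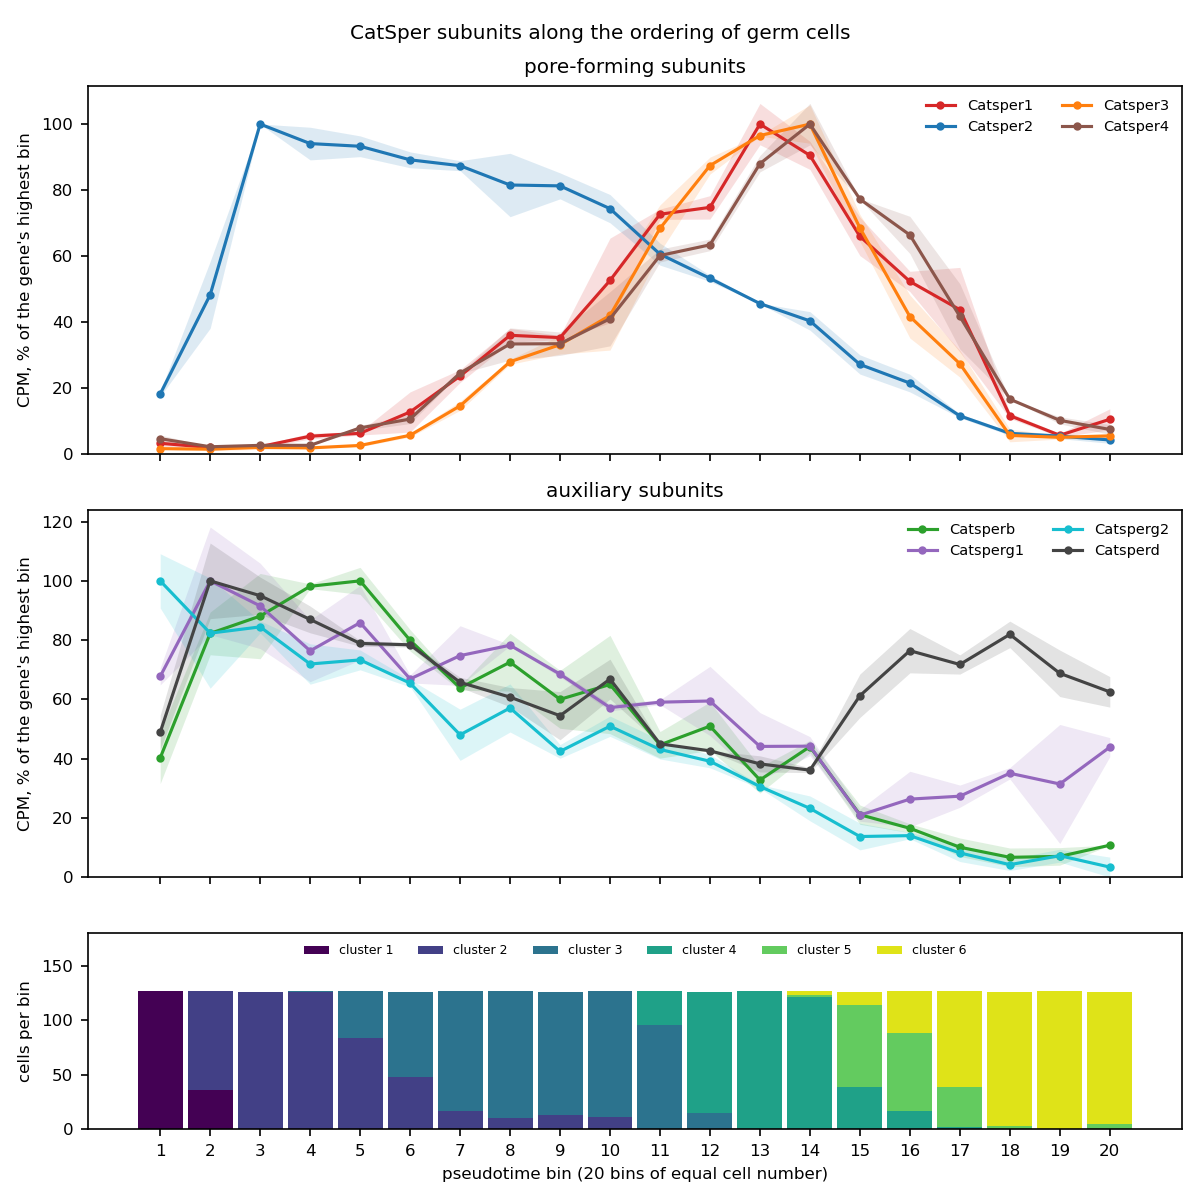
CPM of the CatSper subunits in 20 pseudotime bins, as a percentage of each gene's highest bin (upper panels, lines are means of 2 mice and shading spans the mice), and the number of cells of each cluster per bin (lower panel). Catsper2 was highest in bin 3, and Catsper3 and Catsper4 were highest in bin 14 of the mean of both mice.

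Promoter sequences were available for 6 of the 8 genes in the RefSeq table of GRCm38.p6, without Catsper1 and Catsperg2. They are shown for the early gene Catsper2, for Catsper3 and Catsper4, which both rose from cluster 2 to 3 and from cluster 3 to 4, and for Catsperg1, which held an X-box-like stretch. Each is the 250 bases before the annotated start, 5′ to 3′ on the strand of the gene. Capitals mark stretches that match a searched motif.
Catsper2, chr2:121413793-121414042, minus strand: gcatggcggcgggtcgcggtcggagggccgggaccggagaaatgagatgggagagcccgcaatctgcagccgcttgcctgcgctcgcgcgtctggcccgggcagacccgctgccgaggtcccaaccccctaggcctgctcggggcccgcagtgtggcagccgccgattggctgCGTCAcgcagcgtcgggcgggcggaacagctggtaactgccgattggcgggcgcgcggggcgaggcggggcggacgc
Catsper3, chr13:55784329-55784578, plus strand: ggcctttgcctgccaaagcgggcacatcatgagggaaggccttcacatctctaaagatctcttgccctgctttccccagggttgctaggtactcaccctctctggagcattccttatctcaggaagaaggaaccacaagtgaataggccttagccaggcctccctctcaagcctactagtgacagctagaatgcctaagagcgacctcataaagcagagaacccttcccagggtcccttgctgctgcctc
Catsper4, chr4:134227384-134227633, minus strand: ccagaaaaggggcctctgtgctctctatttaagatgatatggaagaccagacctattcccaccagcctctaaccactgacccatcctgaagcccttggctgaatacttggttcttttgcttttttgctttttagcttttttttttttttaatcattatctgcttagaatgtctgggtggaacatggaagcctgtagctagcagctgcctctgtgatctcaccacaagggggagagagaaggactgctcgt
Catsperg1, chr7:29214034-29214283, minus strand: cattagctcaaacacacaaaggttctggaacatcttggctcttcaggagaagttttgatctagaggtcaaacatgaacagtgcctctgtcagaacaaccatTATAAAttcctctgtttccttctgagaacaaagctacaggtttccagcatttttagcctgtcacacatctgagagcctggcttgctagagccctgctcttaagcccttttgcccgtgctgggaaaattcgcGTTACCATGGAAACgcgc

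The Catsper2 promoter contained 74.8% G and C and 35 CG pairs. Catsper3 had 54.0% and 2 CG pairs, Catsper4 45.2% and 1, Catsperb 38.0% and 1, Catsperg1 46.0% and 5 and Catsperd 52.8% and 11, and the median over 32851 promoters of the same length was 52.4% G and C. Few CG pairs were thus not particular to Catsper3 and Catsper4, since Catsperb, an early gene, had as few as Catsper4. Catsper2, Catsperg1 and Catsperd had more. The late gene Catsper1 had no entry, and whether early and late genes differ in base composition was not tested. The letters of 5 motifs were searched on both strands. The short site TGACG of the cAMP response element was found in Catsper2, 77 bases before the start, and is held by 17.8% of all promoters, the full site TGACGTCA (1.55% of promoters, containing the short site) in none of the 6. The X-box, a binding motif of RFX factors, searched in a 14-letter form (0.667% of promoters), was found in Catsperg1, 18 bases before the start. TATAAA (12.4% of promoters) was found in Catsperg1, 149 bases before the start, and the MYB letters AACNGTC (6.64% of promoters) in none of the 6. Other forms of the MYB site were not searched, so its absence holds for these letters only. Catsper3, Catsper4, Catsperb and Catsperd held none of the 5. The motifs were chosen after the promoter sequences had been seen, and the X-box letters after that stretch of Catsperg1 had been noticed, so the percentage beside it lends it no support.

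In single cells, detection was compared after each cell had been thinned to 5000 UMIs, because the median depth ranged from 11718 UMIs in cluster 6 to 23995 in cluster 5. Catsper3 had a UMI in 99.6% of the cells of cluster 4 (thinned 85.0%) and in 15.6% of those of cluster 2 (thinned 3.04%). Catsper2 was detected in 99.0% of the cells of cluster 2 (thinned 77.8%) and in 94.2% of those of cluster 4 (thinned 54.5%). Catsper4 had a UMI in 98.2% (thinned 71.2%) and Catsper1 in 69.0% of the cells of cluster 4. As cells that should lack the channel, the 12 Sertoli-like and Leydig-like cells (median 10536 UMIs) had a UMI of Catsper2 in 4 cells (33.3%, exact 95% interval 9.92 to 65.1%), of Catsperd in 2 and of Catsper3, Catsperg1 and Catsperg2 in 1 cell each. Catsper1, Catsper4 and Catsperb were found in 0 of these 12 cells, which by the exact interval allows a share of up to 26.5%. Few such cells were captured, so the background share is known only coarsely, and intervals cover counting error only.

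A cell held a mean of 1.04 (mouse 1) and 1.13 (mouse 2) of the 8 transcripts in cluster 1 at 5000 UMIs, 1.93 and 1.78 in cluster 2, 2.50 and 2.44 in cluster 3, 2.98 and 2.79 in cluster 4, 2.21 and 1.99 in cluster 5 and 0.711 and 0.826 in cluster 6. The mean was thus highest in cluster 4 in both mice. Transcripts of all 4 pore subunits were found together in 14 of 189 thinned cells of cluster 4 in mouse 1 (7.41%, exact 95% interval 4.11 to 12.1%) and in 15 of 259 in mouse 2 (5.79%, 3.28 to 9.37%), and in 0 of 163 thinned cells of cluster 1 and 0 of 526 of cluster 2, for which the exact intervals reach up to 2.24% and 0.699%. In thinned cells of cluster 3 the shares were 2.27% and 2.37%. Cluster 5 had 5 of 86 thinned cells in mouse 1 (5.81%) and 0 of 107 in mouse 2. With all UMIs the shares in cluster 4 were 69.3% and 62.5%, in cluster 3 28.8% and 41.3% and in cluster 5 33.7% and 32.7%. At that depth 3 of 526 cells of cluster 2 and 1 of 514 of cluster 6 also held all 4. Catsper2 and Catsper3, highest in different clusters, were both detected in 46.2% of the thinned cells of cluster 4, in 34.5% of those of cluster 3 and in 1.90% of those of cluster 2. Detected singly, Catsper2 and Catsper3 were in 54.5% and 85.0% of the thinned cells of cluster 4. In cluster 3 these shares were 72.4% and 49.2%, and in cluster 2 77.8% and 3.04%. Whether joint detection departed from the single shares was not tested. The choice of this pair was made after their profiles had been seen.

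**Figure D4:**
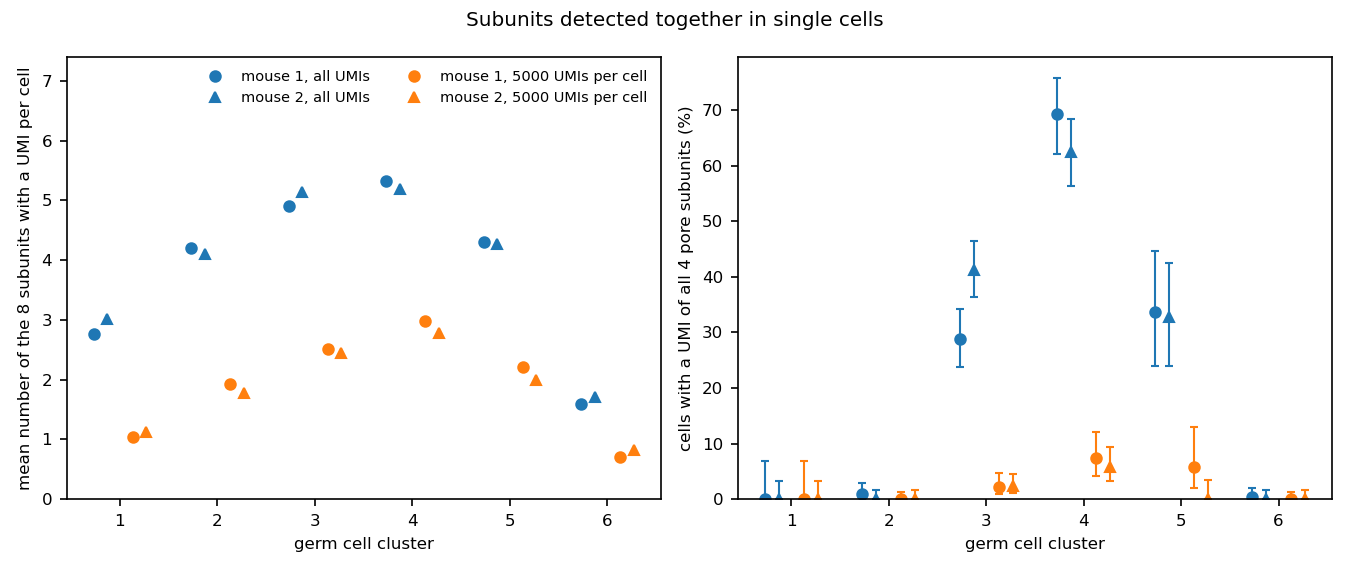
Mean number of the 8 CatSper transcripts with a UMI per cell (left) and percentage of cells with a UMI of all 4 pore subunits (right, exact 95% binomial intervals) by germ cell cluster and mouse, with all UMIs or with 5000 UMIs per cell. At both depths and in both mice the mean was highest in cluster 4.

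Over the 12 sums of 6 clusters and 2 mice, the profiles of log2(CPM + 1) of Catsper1 and Catsper3 had a Pearson r of 0.997, Catsper1 and Catsper4 of 0.982 and Catsper3 and Catsper4 of 0.970. Catsper2 had an r of 0.136, 0.178 and -0.03 with these 3 and of 0.903 with Catsperb. Catsperg2 had an r of 0.916 with Catsperb and of 0.917 with Catsperg1, and Catsperd stayed at -0.05 or below with all of the others. These values describe likeness over sums that share libraries and clusters. Among 7865 genes with at least 500 UMIs, the 3 most like Catsper3 were 4933405O20Rik (r = 0.999), Csrnp3 (0.997) and Zp3r (0.996). Those most like Catsper1 were 4933405O20Rik (0.996), Spaca3 (0.995) and Apobec4 (0.995), and those most like Catsper4 were Lyzl1 (0.998), 1700113H08Rik (0.995) and 4930568D16Rik (0.995). Zp3r and Spaca3 encode acrosomal proteins. Catsper2 was followed most closely by Vps26a (0.998), 1700051A21Rik (0.994) and Hsbp1 (0.993), Catsperb by Cog1 (0.988), Haus1 (0.986) and Atf7ip2 (0.984), Catsperg1 by Ascc2 (0.967), Rpe (0.964) and Terb1 (0.961), and Catsperg2 by Ap3m1 (0.991), Eps15 (0.988) and Ndufaf7 (0.988). The likeness to Catsperd was weaker, with Ell (0.928), Maea (0.892) and Rab7 (0.891).

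The other proteins of the channel complex were taken from a list of 8 genes, of which 7 had a row and were tested. Efcab9, the calcium-binding partner of CATSPERZ, and Tmem262 both rose from cluster 2 to 3 and from cluster 3 to 4, as did Catsper3. Efcab9 was measured at 10.4 and 8.85 CPM in cluster 2, 267 and 277 CPM in cluster 3, 491 and 447 CPM in cluster 4, 408 and 393 CPM in cluster 5 and 31.6 and 31.8 CPM in cluster 6, and it rose by 4.88 ± 0.18 from cluster 2 to 3 (edgeR, adjusted p = 2.09e-15). Tmem262 stood at 6.33 and 5.90 CPM in cluster 2, 120 and 127 CPM in cluster 3 and 252 and 227 CPM in cluster 4. It rose by 4.40 ± 0.19 from cluster 2 to 3 (edgeR, adjusted p = 1.50e-14), but another annotated gene, Gm28374, covers it on the opposite strand. From cluster 4 to 5, where Catsper3 fell by 0.50, the change of Efcab9 was 0.24 ± 0.14 and not called (edgeR, adjusted p = 0.194), while DESeq2 called it higher (adjusted p = 0.0212). The difference between these genes was not tested.

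Catsperz (listed as Tex40), in contrast, was highest in cluster 2, at 1744 and 1848 CPM, and stood at 1092 and 1102 CPM in cluster 4 and at 363 and 356 CPM in cluster 6. Its longest transcript shares 36.5% of its 98-base windows with Kcnk4, and 5.21% of those in its last 500 bases. Kcnk4 also overlaps Catsperz on the same strand by 1415 bases, so the counts of Catsperz are less certain. Efcab9 and Catsperz, whose proteins bind each other, therefore had their highest levels in different clusters. Slco6c1, an organic anion transporter family member, was at 321 and 296 CPM in cluster 2, 323 and 292 CPM in cluster 3 and 26.7 and 17.5 CPM in cluster 5. C2cd6 (listed as Als2cr11) was at 362 and 381 CPM in cluster 3 and 361 and 371 CPM in cluster 4, so that the CPM of the mice overlapped. Its change of 0.26 ± 0.14 in this step was not called (edgeR, adjusted p = 0.133), but it was called higher with the replicate block (adjusted p = 0.0283) and with DESeq2 (adjusted p = 0.0204). Catspere2, an epsilon subunit gene, was at 56.5 and 46.8 CPM in cluster 2 and at 2.91 and 1.43 CPM in cluster 5. Its neighbour Catspere1, annotated as a pseudogene, had 171 UMIs and 0 in cluster 5, for which the exact 95% interval reaches up to 0.759 CPM, and it shared 42.9% of the windows in its last 500 bases with Catspere2.

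By step, 4, 2, 2, 0 and 0 of the 7 complex genes rose and 0, 2, 1, 4 and 4 fell in edgeR, where 25.5%, 32.1%, 26.4%, 22.7% and 16.5% of all genes tested were called higher and 24.6%, 30.0%, 18.7%, 21.6% and 23.5% lower. Where 0 rose, DESeq2 called 1 from cluster 4 to 5 and 0 from cluster 5 to 6, and 0 and 1 had an unadjusted p under 0.05 in edgeR. Where 0 fell, DESeq2 called 0 and 0 had such a p. With the mouse as a replicate block, C2cd6 made 3 that rose and Slco6c1 made 2 that fell from cluster 3 to 4, and Catsperz made 3 that fell from cluster 2 to 3. With DESeq2, C2cd6 and Catsperz made 3 that rose and 3 that fell from cluster 2 to 3, and C2cd6 made 3 that rose from cluster 3 to 4. With total UMIs 0, 3, 3, 6 and 5 were called lower. The medians of their log2 changes were 0.78, 0.07, 0.26, -0.44 and -0.54, beside 0.00, -0.01, -0.02, -0.11 and 0.00 over all genes tested. Of 9 partner channels, transporters and enzymes of sperm, 8 were tested and Hvcn1, the proton channel gene, had 6 UMIs. By step, 4, 5, 5, 2 and 1 of the 8 rose and 0, 1, 2, 2 and 3 fell in edgeR, beside the shares of all genes given above. DESeq2 also called 0 of them lower from cluster 1 to 2. From cluster 2 to 3, the 5 that rose were Adcy10, Lrrc52, Atp1a4, Abhd2 and Kcnu1, and Atp2b4 fell, against 32.1% and 30.0% of all genes tested. The replicate block added Prkaca, which made 6 that rose, and Slc9c1, which made 2 that fell, and DESeq2 called 4 higher, without Adcy10. Adcy10, Atp1a4, Abhd2, Atp2b4, Slc9c1 and Hvcn1 are named outside the rule for named genes, after their values had been seen. Lrrc52, the auxiliary subunit of the potassium channel KCNU1, was measured at 2.40 and 2.68 CPM in cluster 2 and 28.9 and 46.3 CPM in cluster 3. Cluster 4 held 132 and 139 CPM. Lrrc52 rose by 3.97 ± 0.28 from cluster 2 to 3 (edgeR, adjusted p = 2.94e-11). Kcnu1, the pore of the sperm potassium channel, stood at 10.1 and 9.66 CPM in cluster 2 and 60.2 and 64.7 CPM in cluster 3. Cluster 4 held 74.8 and 86.0 CPM. Kcnu1 rose by 2.73 ± 0.17 from cluster 2 to 3 (edgeR, adjusted p = 5.26e-12). Prkaca, the catalytic subunit of protein kinase A, was at 95.8 and 99.1 CPM in cluster 3 and 58.1 and 59.6 CPM in cluster 4. Cluster 5 held 8.74 and 3.93 CPM. Prkaca changed by -0.45 ± 0.18 from cluster 3 to 4 (edgeR, adjusted p = 0.0494) and fell by 2.82 ± 0.29 from cluster 4 to 5 (edgeR, adjusted p = 2.85e-08).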

How the data were processed

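The deposited UMI counts were made by the authors with Cell Ranger 2.0.0 and bcl2fastq 2.17.1.14 (per the labels) against repeat-masked GRCm38 with added repeat sequences. Reads of the deeper library were downsampled, and both mice were combined. Mouse was taken from the number ending each barcode, a map that no file states. Cells were clustered by K-means (K = 9, seed 42, 10 principal components, 27766 rows) without the CatSper and listed genes, and named from 108 markers. Scrublet called 25 doublets, which were kept. UMIs were summed per mouse and cluster and tested with edgeR 4.0.16 (filterByExpr, TMM), with DESeq2 1.42.0 among the alternatives. All clusters shared 1 estimate of the spread. Clusters and tests use the same cells, so the adjusted p-values describe the clusters of these 2 animals.

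On simulated data for the step from cluster 3 to 4, edgeR recovered 170 of 200 genes given a 4-fold change among 14132, with 11 false calls, and DESeq2 156 with 4. In the simulation only those 200 genes differed between clusters and all sums were drawn independently, whereas 97.0% of the genes tested differed in the data. These rates therefore do not carry over to the real steps. Sums of the same number come from 1 animal, and their deviations had correlations of 0.026 to 0.231 over 15 pairs of clusters. The members and lists were chosen with earlier results of these data known. Named genes were the members, the complex genes, the 3 partner genes with the largest absolute log2 change and the 3 genes most like each member. In all, 5 clusterings and 11 test settings besides that reported were run, 1 of them, total UMIs in place of TMM, added after the results were seen. The clustering with K = 10 changed no germ cell cluster and was no separate check. For the number of transcripts per cell, the plan named thinned cells both as the reported value and as an alternative, so unthinned cells were taken as the alternative. The genome builds were GENCODE's and RefSeq's GRCm38. Python 3.11.15, scanpy 1.11.5, scikit-learn 1.9.0, R 4.3.3 and matplotlib 3.10.9 were used.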

Additional observations from a re-analysis of the deposited data

How the results depend on the processing

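Log2 changes of the members were recomputed under 11 other test settings, 440 values in all. Of these, 404 kept their side of the threshold, 15 lost a call and 18 gained a call. A change of sign with no call under either setting was counted among the 404. K = 10 could only repeat the reported values, because its germ cell clusters held the same cells. A further 3 turned in sign with a call under the reported setting or the other, and the cause was not tested. Those that turned were Catsper4 from cluster 4 to 5 (-0.47 without a gene filter and -0.46 with total UMIs) and Catsperd from cluster 5 to 6 (-0.17 with total UMIs). For Catsper4 the reported change was 0.00 and not called, so it had no clear direction to turn from. The number of members called lower from cluster 2 to 3 was 2 with DESeq2, with its size factors, without a gene filter and in thinned cells, against 4. From cluster 3 to 4 it was 2 with the replicate block, without repeat rows, with the 2000 most variable genes and with the other seed, and 4 with total UMIs, against 1. From cluster 4 to 5 it was 7 without a gene filter and with total UMIs and 1 in thinned cells, against 3. The number called higher from cluster 5 to 6 was 1 in thinned cells, with variable genes and with the other seed and 0 with total UMIs, against 2. For the last, with 0 called by edgeR, DESeq2 called 2 and 0 had an unadjusted p under 0.05. With DESeq2 1 complex gene was called higher from cluster 4 to 5, and the replicate block made 2 of the complex genes lower from cluster 3 to 4 and 2 partner genes lower from cluster 2 to 3. It changed the calls given in the text for Catsperg1 and Catsperg2 and no other call of a member.

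Leaving out a mouse left a value with no test. In CPM the highest cluster of Catsperd was 2 without mouse 2 and 5 without mouse 1. In UMIs per cell Catsperg2 was highest in cluster 2. In thinned cells the share with a UMI in the highest cluster was 24.6% for Catsper1, 77.6% for Catsper2, 85.4% for Catsper3, 71.4% for Catsper4, 26.9% for Catsperb, 10.6% for Catsperg1, 22.3% for Catsperg2 and 46.9% for Catsperd, as means of both mice. The mean pseudotime bin moved beyond the spread of the mice to 7.86 (Catsper2), 12.5 (Catsper3) and 12.7 (Catsper4) with a second starting cell, to 12.6 (Catsper1), 7.94 (Catsper2), 12.7 (Catsper3) and 12.8 (Catsper4) with 30 neighbours, and in UMIs per cell to 12.2, 7.74, 12.4 and 12.4 for Catsper1 to Catsper4, 7.23 for Catsperb, 7.91 for Catsperg1 and 9.08 for Catsperd. Without thinning, a cell held 2.89, 4.15, 5.02, 5.26, 4.28 and 1.65 transcripts on average in clusters 1 to 6. K = 10 gave germ cell clusters with the same cells, so its counts and peaks could not differ. Leaving out doublets left all counts and peaks within 1.5 times or in place. Only 2 animals and few UMIs of Catsper1, Catsperg1 and Catsperg2 limit the precision in the outer clusters.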
